A study of Homo sapiens with 20 samples.

Results

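ATF4 and 9 of its target genes, 10 genes of the 19617 measured, were followed in MM1.S cells after loss of the coactivators CBP and p300. The members were ATF4, ATF3, DDIT3, TRIB3, ASNS, CHAC1, PSAT1, PHGDH, SESN2 and SLC7A11, chosen by name, and each was read from its most counted transcript, summed over the 20 libraries. MM1.S is an established multiple myeloma cell line with a wild-type genotype in the labels, so all values come from 1 line. Cells received 10 nM dCBP-30, a degrader of CBP and p300, or its vehicle DMSO. They were harvested after 2, 6 or 24 h, which gives 6 groups of 3 libraries and a DMSO group for each harvest. All of these 18 libraries were labelled with 4-thiouridine (4sU) for the last 1 h, and another 2 libraries had no 4sU. The replicates are numbered in the labels, but nothing there says whether they came from separate cultures, so the p-values measure the spread between these libraries, which may be technical.

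The integrated stress response lowers general protein synthesis when amino acids, heme or protein folding fail or when viral RNA is sensed. Its kinases phosphorylate the initiation factor eIF2, and translation of the ATF4 mRNA then rises, because upstream reading frames in that mRNA hold it back in unstressed cells. ATF4 is a bZIP transcription factor that often pairs with C/EBP proteins and switches on amino acid synthesis, transport and, through DDIT3, cell death genes. Myeloma cells secrete large amounts of antibody protein and are known for a high load on this pathway. Much of the control of ATF4 lies in translation, which RNA counts do not measure.

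In SLAM-seq, 4sU taken up into new RNA is alkylated and then read as C in place of T. A read with such a conversion, a T>C read, is therefore taken as a sign of RNA made during labelling. Some T>C reads arise without 4sU, at 0.794% and 0.809% of the reads on genes in the libraries without it. The share of a gene's reads that are T>C reads (the labelled share) is thus a guide to how much of its RNA was new, and not that amount itself. Levels are given as T>C or total RPM (reads per 1000000 reads), scaled by library size (all reads) and by a TMM factor, which centres most genes between libraries. A gene was called when its adjusted p (edgeR's quasi-likelihood test, Benjamini-Hochberg over all genes tested) was under 0.05 and its log2 fold change was beyond 1 in either direction. For the labelled share, the fold is the ratio of the odds that a read is a T>C read.

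The libraries held 12440700 to 18729086 reads on genes. In the DMSO libraries, 27.5% ± 1.5 (SD, n = 9) of the members' pooled reads were T>C reads, against 0.559% and 0.843% in the libraries without 4sU, and this difference had the smallest p the design allows (two-sided exact permutation test, p = 0.0182). ATF4 gave the most reads to this pool, with 74975 over the 18 labelled libraries, followed by SESN2 with 24330. The pooled share thus does not show how far each member stood above the background. After 24 h of dCBP-30, the ratio of counted conversions to T>C reads was 1.47 ± 0.0431, against 2.48 ± 0.0255 in DMSO (SD, n = 3 each). This ratio was 0.928 and 0.918 without 4sU, below 1, so it is not the number carried by each T>C read. The part of the difference from DMSO in the T>C reads and labelled shares was not tested. The TMM factors were 1.29 to 1.32 in those dCBP-30 libraries and 0.893 to 0.934 in DMSO. Without these factors the median log2 change of total reads over all genes at 24 h was 0.58 in place of 0.05. Fold changes of T>C and total reads below are thus relative to the total reads of most genes. The median change of T>C reads was itself -0.69 at 24 h. The labelled share was fitted without TMM factors. Plasma cell genes were present over the 18 labelled libraries, with 131 to 1780 RPM for SDC1 and 3.46 to 251 RPM for TNFRSF17. The monocyte gene CD14 and the hepatocyte gene ALB stayed under 1 RPM, and the T cell gene CD3E had 2.08 to 15.7 RPM.

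In all, 3 of the members have the sequence that ATF4 and C/EBP proteins are known to bind, the C/EBP-ATF response element (CARE), in the 250 bases before a RefSeq gene start. The letters TGATGNAA were searched on both strands of 15 promoter windows of 9 members, and SLC7A11 had no entry in that table. A match stood in 3 of the 15 windows and in 3.14% of 35116 promoter windows of all genes, the base for reading these matches. The 3 matches are shown, with the build GRCh38.p14 and the matched letters in capitals.
ATF3, chr1:212565205-212565234, plus strand, match 191 bases before the start: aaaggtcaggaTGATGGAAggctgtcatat
ASNS, chr7:97872458-97872487, minus strand, match 68 bases before the start: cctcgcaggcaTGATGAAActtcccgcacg
CHAC1, chr15:40953251-40953280, plus strand, match 209 bases before the start and on the opposite strand: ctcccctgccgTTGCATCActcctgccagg
ASNS is a classic model of an amino acid response promoter. A window of ATF3 and one of CHAC1 match the same search letters, while an ATF3 window near chr1:212614768 holds only TGATG. Their T>C reads were called in opposite directions at 24 h, as described below, with ATF3's call depending on the scaling. Which start these cells use, and any link of a match to the response, was not tested. No window of a member held the letters TGACGTCA of the cyclic AMP response element, which 1.65% of all windows held. The AP-1 letters TGANTCA stood in 2 of the 15 windows and in 6.57% of all windows. The shorter core TGATG stood in 6 of the 15 and in 28.8% of all windows. A match is a description of the letters and not a measured binding site.

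Of the 9 members with enough T>C reads to be tested, 2, 3 and 5 were called at 2, 6 and 24 h. At 2 h, 1 was called lower (ATF3) and 1 higher (SESN2), beside 7.14% and 1.66% of the 10086 genes tested. At 6 h, 2 were lower (ATF4 and ATF3) and 1 higher (SESN2), beside 17.1% and 2.36% of all genes. At 24 h, 3 were lower (ATF3, PSAT1 and PHGDH) and 2 higher (DDIT3 and CHAC1), beside 31.2% and 2.17%. The balance at 24 h depended on the scaling. Scaled by T>C reads, 2 members were lower (PSAT1 and PHGDH) and 4 higher (DDIT3, CHAC1, ASNS and SESN2), beside 1513 genes lower and 759 higher of 10054, where the values above were 3148 and 219 of 10086. At 6 h that scaling gave 1184 lower and 518 higher in place of 1720 and 238. The median log2 change of the 9 members was 0.32, -0.01 and -0.76 at the 3 times, and that of all genes was 0.05, -0.28 and -0.69. In bulk RNA, fewer cells with a gene on and less RNA per cell cannot be told apart.

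**Figure D1:**
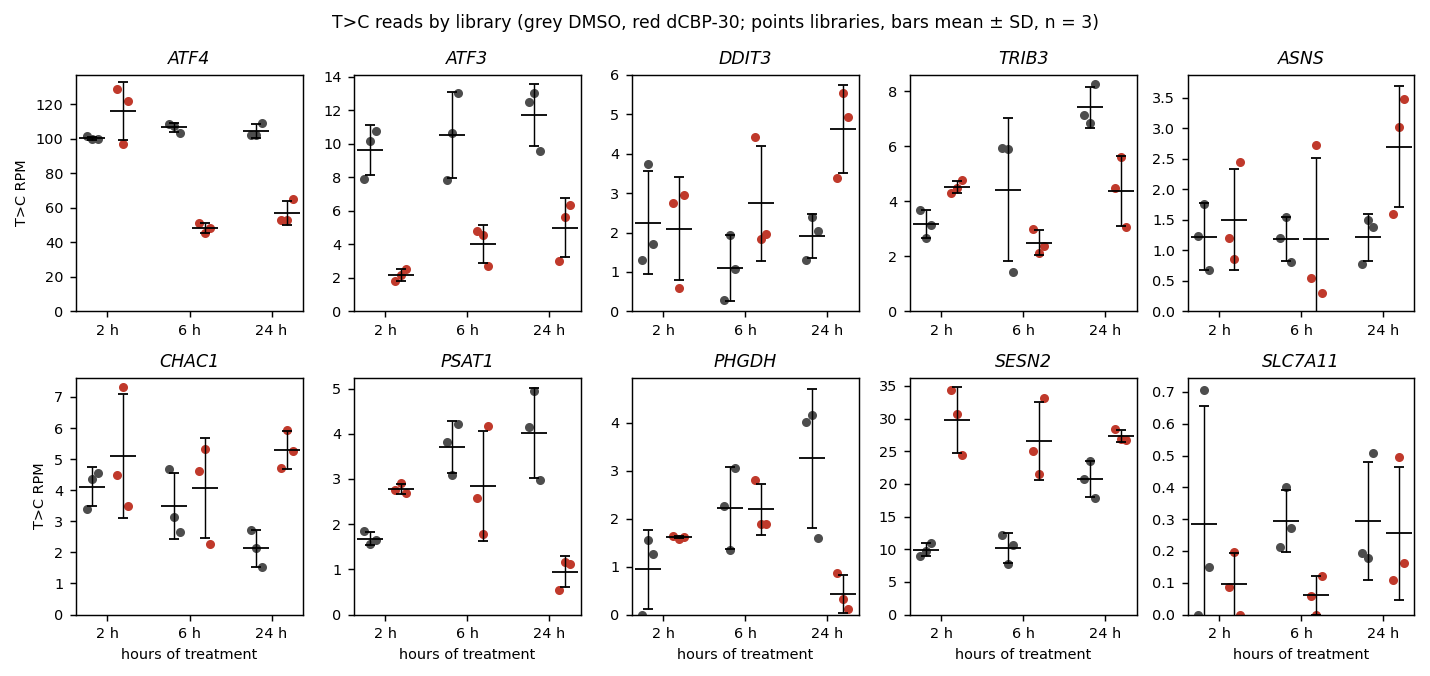
T>C RPM (y axis, one scale per gene) of the 10 members in each labelled library at 2, 6 and 24 h (x axis). Grey points are DMSO libraries and red points dCBP-30 libraries, with bars at the mean ± SD (n = 3). ATF3 was lower in the dCBP-30 libraries at each time point, SESN2 stood higher in them at each time point, and PSAT1 and PHGDH separated from DMSO downwards only at 24 h.

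ATF4 (ENSG00000128272, chromosome 22, plus strand) encodes the regulator of the set, and its coordinates, like those below, are in hg38. Its 3′ UTR at 39522600 to 39522683 is 84 bases long and lies in 1 exon. After 2 h the DMSO libraries had 101, 99.9 and 99.7 T>C RPM and the dCBP-30 libraries 129, 97.0 and 122. After 6 h these were 109, 108 and 103 for DMSO and 51.4, 45.5 and 48.5 for dCBP-30. After 24 h they were 102, 102 and 109 for DMSO and 52.9, 52.6 and 65.1 for dCBP-30. DMSO levels thus lay close together, the dCBP-30 libraries at 2 h straddled them, and those at 6 and 24 h lay below every DMSO library.

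ATF4's log2 change in T>C reads was 0.21 ± 0.14 (SE) at 2 h with an adjusted p of 0.423. At 6 h its T>C reads fell by 1.14 ± 0.14 on the log2 scale, a 2.20-fold difference (adjusted p = 1.86e-09). At 24 h the log2 change was -0.88 ± 0.14, which passed the test at an adjusted p of 6.71e-07 but was short of 2-fold, beside a median of -0.69 for all genes. The change at 6 h differed from that at 2 h by -1.34 ± 0.20 (interaction term, adjusted p = 1.24e-06), and the change at 24 h differed from it by -1.08 ± 0.20 (adjusted p = 2.12e-05). Under scaling by T>C reads, which sets a change shared by most genes to 0, the fall at 6 h was -0.82 and no longer called, and the difference of 24 from 2 h was -0.45 (adjusted p = 0.0918).

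ATF4's total reads moved less at 24 h than its T>C reads. At 6 h the dCBP-30 libraries had 160, 148 and 154 total RPM and the DMSO libraries 300, 315 and 311, a fall of 1.00 ± 0.10 on the log2 scale that lay at the 2-fold limit (adjusted p = 1.16e-08). The call ended without dCBP-30 replicate 2 or DMSO replicate 2 or 3 of 6 h or dCBP-30 replicate 3 of 2 h, the smallest of these changes being -0.97, and without TMM factors the change was -0.68. At 24 h they had 260, 257 and 256 against 280, 294 and 275, a log2 change of -0.14 ± 0.10 (adjusted p = 0.237), which without TMM factors turned to 0.39 and passed the test short of 2-fold (adjusted p = 0.00154). Its labelled share was 34.1% ± 1.35 with dCBP-30 and 34.0% ± 2.60 with DMSO at 2 h, and 22.1% ± 2.94 against 36.9% ± 2.46 at 24 h (SD, n = 3 each). GENCODE holds 4 pseudogenes named after ATF4, and the authors removed reads that fit several places, so its count is uncertain to that extent.

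ATF3 (ENSG00000162772, chromosome 1, plus strand, 3′ UTR 212619553 to 212620775) encodes a bZIP factor that stress kinases, p53 and ATF4 are all known to induce. It had 7.93, 10.2 and 10.8 T>C RPM in the DMSO libraries at 2 h and 1.81, 2.18 and 2.5 with dCBP-30. At 6 h these were 7.86, 10.7 and 13.0 with DMSO against 4.79, 4.55 and 2.70, and at 24 h 12.5, 13.0 and 9.57 against 3.01, 5.66 and 6.33. The 2 treatments thus did not overlap at 2, 6 or 24 h. The fall was largest at 2 h, by 2.14 ± 0.32 (SE) on the log2 scale or 4.40-fold (adjusted p = 4.68e-07). It was 1.39 ± 0.30 at 6 h (adjusted p = 0.000239) and 1.23 ± 0.30 at 24 h (adjusted p = 0.00058), so the estimates shrank with time, but neither interaction passed the test (adjusted p = 0.373 for 6 h and 0.116 for 24 h). Without dCBP-30 replicate 1 of 24 h the latter was 1.17 and passed (adjusted p = 0.0417). Without TMM factors the change at 24 h was -0.70 (adjusted p = 0.0666) and was not called, nor was the change of -0.96 without dCBP-30 replicate 1.

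SESN2 (ENSG00000130766, chromosome 1, plus strand, 3′ UTR 28280800 to 28282491) encodes Sestrin 2, a leucine sensor that restrains mTORC1 and is induced by both ATF4 and p53. Its T>C reads were 9.0, 9.73 and 11 RPM with DMSO at 2 h and 34.4, 30.7 and 24.4 with dCBP-30. At 6 h they were 12.2, 7.78 and 10.7 against 25, 21.5 and 33.1. At 24 h the groups still did not overlap, with 20.7, 23.5 and 17.9 against 28.4, 26.9 and 26.8, but the DMSO level had itself moved up. Its T>C reads rose by 1.59 ± 0.21 at 2 h, a 3.01-fold difference (adjusted p = 9.02e-09), and by 1.38 ± 0.20 at 6 h (adjusted p = 1.47e-07). At 24 h the log2 change was 0.40 ± 0.20 (adjusted p = 0.1), and the interaction of 24 with 2 h was -1.19 ± 0.28 (adjusted p = 0.000896). Scaled by T>C reads, the change at 24 h was 1.05 and passed (adjusted p = 1.06e-05), and the interaction was -0.54 (adjusted p = 0.172).

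With dCBP-30, the mean total reads of SESN2 were highest at 6 h. After 2 h they stood at 107 ± 17.5 RPM with dCBP-30 against 50.5 ± 2.75 with DMSO, after 6 h at 149 ± 25.9 against 49.5 ± 1.38, and after 24 h at 97.0 ± 9.85 against 56.9 ± 4.92 (SD, n = 3 each). The rises were 1.08 ± 0.13 (SE) at 2 h (adjusted p = 4.21e-06, and 0.97, not called, without dCBP-30 replicate 2) and 1.59 ± 0.13 at 6 h (adjusted p = 5.61e-10) on the log2 scale. The change at 24 h, 0.77 ± 0.13, passed the test (adjusted p = 2.32e-05) short of 2-fold, and without TMM factors it was 1.29 and called (adjusted p = 1.63e-08).

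DDIT3 (ENSG00000175197, chromosome 12, minus strand, 3′ UTR 57516593 to 57516811) encodes CHOP, the factor tied to cell death under long endoplasmic reticulum stress. At 24 h it had 3.39, 5.55 and 4.93 T>C RPM with dCBP-30 and 1.30, 2.38 and 2.03 with DMSO, with no overlap. At 2 h (2.76, 0.594 and 2.94 against 1.31, 3.74 and 1.72) and at 6 h (4.43, 1.83 and 1.96 against 0.283, 1.94 and 1.08) the groups overlapped. Its T>C reads rose at 24 h by 1.28 ± 0.53, close to the limit of the test (adjusted p = 0.0467), and leaving out any DMSO library or dCBP-30 replicate 2 or 3 of that time point, or dCBP-30 replicate 3 of 2 h, ended the call, with adjusted p between 0.0501 and 0.166. At 6 h the log2 change was 1.30 (adjusted p = 0.0794), and without DMSO replicate 2 (1.98) or without TMM factors (1.61) it was called. Total reads rose by 2.07 ± 0.46 at 24 h (adjusted p = 0.000428), with 11.9, 16.1 and 10.1 total RPM against 2.27, 3.10 and 3.70. The counts behind these values were small, 4 to 101 T>C reads per library. DDIT3's 3′ UTR overlaps that of MARS1 on the other strand, and whether reads were counted by strand is not given in the sources used here.

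CHAC1 (ENSG00000128965, chromosome 15, plus strand, 3′ UTR 40955772 to 40956512) encodes an enzyme that breaks down glutathione and is induced downstream of ATF4. At 24 h it had 4.71, 5.93 and 5.26 T>C RPM with dCBP-30 and 2.72, 2.15 and 1.52 with DMSO. At 2 and 6 h the groups overlapped, with log2 changes of 0.32 ± 0.38 and 0.23 ± 0.38. The rise at 24 h was 1.31 ± 0.39 in T>C reads (adjusted p = 0.00459) and 1.71 ± 0.30 in total reads (adjusted p = 3.18e-05), the latter from 3.31 ± 0.854 to 10.9 ± 1.17 RPM (SD, n = 3 each). DMSO levels of CHAC1 T>C reads went from 4.10 ± 0.629 RPM at 2 h to 2.13 ± 0.599 at 24 h, a log2 change of -0.94 that did not pass (adjusted p = 0.127).

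PSAT1 and PHGDH encode enzymes of serine synthesis from a glycolytic intermediate. PSAT1 (ENSG00000135069, chromosome 9, plus strand, 3′ UTR 78329084 to 78330093) had 0.547, 1.15 and 1.13 T>C RPM at 24 h with dCBP-30 and 4.15, 4.95 and 2.97 with DMSO. PHGDH (ENSG00000092621, chromosome 1, plus strand) had 0.875, 0.330 and 0.107 against 4.02, 4.17 and 1.59. Both were below every DMSO library at 24 h, and at 2 h both had lain above every DMSO library, PSAT1 at 2.69 to 2.90 against 1.55 to 1.85 RPM and PHGDH at 1.58 to 1.64 against 0 to 1.55. Neither passed the test at 2 h (adjusted p = 0.379 and 0.573).

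At 24 h PSAT1's T>C reads fell by 2.09 ± 0.46 on the log2 scale, a 4.25-fold difference (adjusted p = 0.000188). PHGDH's fell by 2.88 ± 0.69 (adjusted p = 0.000502), from 22 to 70 T>C reads per DMSO library to 2 to 16 per dCBP-30 library. The libraries without 4sU had 0.255 and 0.298 T>C RPM of PHGDH, within its range of 0.107 to 0.875 RPM with dCBP-30 at 24 h. Of its pooled reads, 1.96% were T>C reads in those dCBP-30 libraries and 0.593% without 4sU. Its level was thus close to the background, and the size of its fall is not well measured. For PSAT1 the libraries without 4sU had 0.638 and 0.298 T>C RPM. With the background subtracted, the changes were -2.12 for PSAT1 (adjusted p = 0.00195) and -3.22 for PHGDH (adjusted p = 0.00367). Both changes differed from those at 2 h, by -2.81 ± 0.65 (adjusted p = 0.00061) and -3.65 ± 0.95 (adjusted p = 0.00255). Mean DMSO levels were also higher at 24 h than at 2 h, at 4.02 against 1.68 T>C RPM for PSAT1. For PHGDH they were 3.26 against 0.94, and neither vehicle change was called. Total reads showed the fall as well, at 13.4 ± 1.77 against 48.1 ± 7.63 RPM for PSAT1 and 22.2 ± 1.48 against 56.1 ± 5.84 for PHGDH (SD, n = 3 each). These were log2 falls of 1.85 ± 0.20 (adjusted p = 3e-08) and 1.34 ± 0.16 (adjusted p = 1.46e-07), the latter -0.82 and not called without TMM factors. At 6 h neither total count was called, with 0.58 for PHGDH passing the test short of 2-fold (adjusted p = 0.0056). PHGDH's counted region is in 10 pieces between 119724458 and 119744201, since the transcript with the most reads has a 3′ UTR that other transcripts use otherwise, and 4 pseudogenes named after PSAT1 make its count uncertain in the same way.

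ASNS, TRIB3 and SLC7A11 were not called in T>C or total reads at 2, 6 or 24 h of treatment with all libraries in the fit. ASNS (ENSG00000070669, chromosome 7, minus strand), asparagine synthetase, had 1.59, 3.02 and 3.49 T>C RPM with dCBP-30 at 24 h against 0.777, 1.49 and 1.38 with DMSO. That log2 change of 1.15 ± 0.65 missed the threshold (adjusted p = 0.158), but under scaling by T>C reads it was 1.79 and passed (adjusted p = 0.0309). Without TMM factors it was 1.67 and passed as well (adjusted p = 0.0412). With the background subtracted it was 1.59 and did not pass (adjusted p = 0.247). The libraries without 4sU had 0.638 and 0.298 T>C RPM of ASNS. Its total reads stayed at 44.4 to 55.6 RPM against 40.6 to 47.2, a log2 change of 0.14 ± 0.16. ASNS was counted in 4 pieces between 97852131 and 97854688 and had 5 to 65 T>C reads per library. Its picked transcript had 12762 reads over the 20 libraries and the next transcript with other counts 12004. GENCODE holds 4 pseudogenes named after ASNS, so its count is uncertain in the same way as that of ATF4.

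TRIB3 (ENSG00000101255, chromosome 20, plus strand, 3′ UTR 396688 to 397559), a pseudokinase that feeds back on ATF4 and CHOP, had 4.49, 5.60 and 3.06 T>C RPM with dCBP-30 at 24 h against 7.13, 6.86 and 8.27. The groups did not overlap, and the log2 change of -0.76 ± 0.36 did not pass (adjusted p = 0.0937). At 6 h its total reads were 11.2 ± 1.61 against 21.4 ± 4.24 RPM (SD, n = 3 each), a log2 change of -0.93 ± 0.20 that passed the test short of 2-fold (adjusted p = 0.000782). Its T>C reads at 6 h were 2.99, 2.11 and 2.39 RPM against 5.95, 5.90 and 1.42, and without the low DMSO replicate 3 the change would be called in T>C reads (-1.24) and total reads (-1.08). SLC7A11 (ENSG00000151012, chromosome 4, minus strand, 3′ UTR 138164097 to 138171958), the cystine transporter subunit, had 0 to 10 T>C reads per library and was tested in total reads only. Its total reads were 2.48 ± 0.472 against 3.26 ± 0.753 RPM at 24 h, a log2 change of -0.39 ± 0.46 (adjusted p = 0.474).

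**Figure D2:**
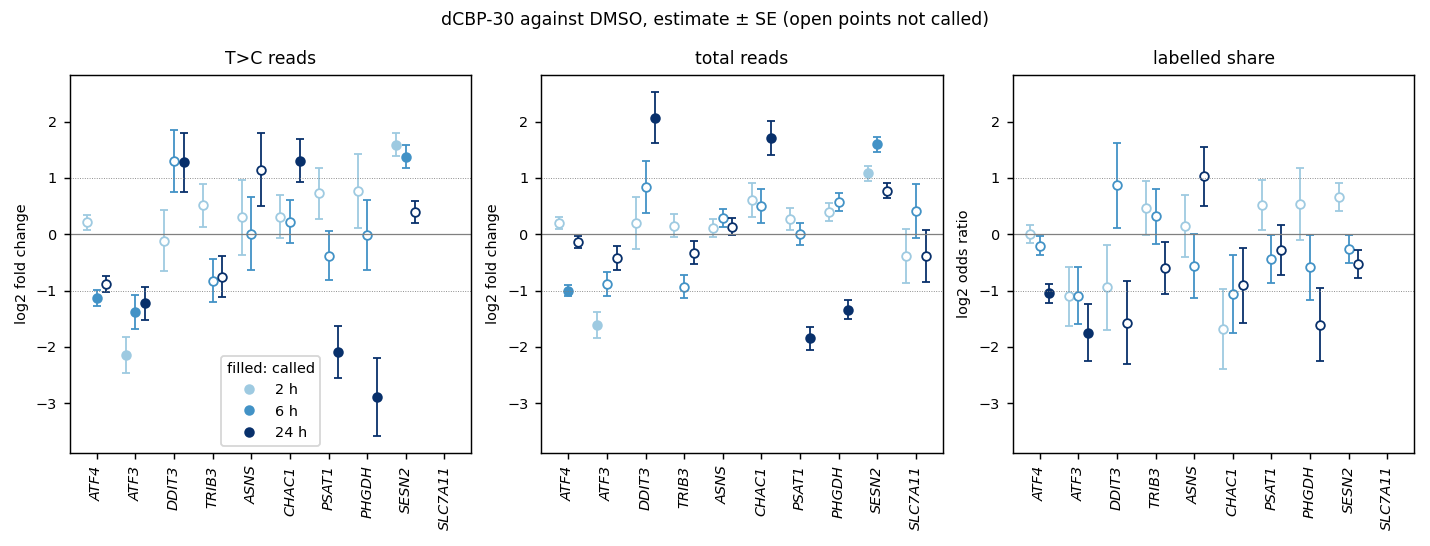
Log2 fold change of T>C reads and total reads and log2 odds ratio of the labelled share (y axes) for each member (x axis), dCBP-30 against DMSO at 2, 6 and 24 h, as estimate ± SE. Filled points are called and dotted lines mark 2-fold. SESN2 and ATF3 are called at 2 h in opposite directions, and PSAT1 and PHGDH reach -2.09 and -2.88 in T>C reads at 24 h.

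Over all 10 members, total reads were called lower for 1 (ATF3) and higher for 1 (SESN2) at 2 h, beside 1.25% and 0.464% of the 12272 genes tested. At 6 h 1 was lower (ATF4) and 1 higher (SESN2), beside 8.67% and 7.47%. At 24 h 2 were lower (PSAT1 and PHGDH) and 2 higher (DDIT3 and CHAC1), beside 16.1% and 15.0%. ATF3's total reads fell at 2 h from 16.3 ± 2.72 to 5.31 ± 0.415 RPM (SD, n = 3 each), by 1.61 ± 0.23 (SE) on the log2 scale (adjusted p = 2.81e-05). They were 12.9 ± 1.27 against 17.3 ± 1.89 RPM at 24 h, a log2 change of -0.42 ± 0.21 (adjusted p = 0.0909).

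**Figure D3:**
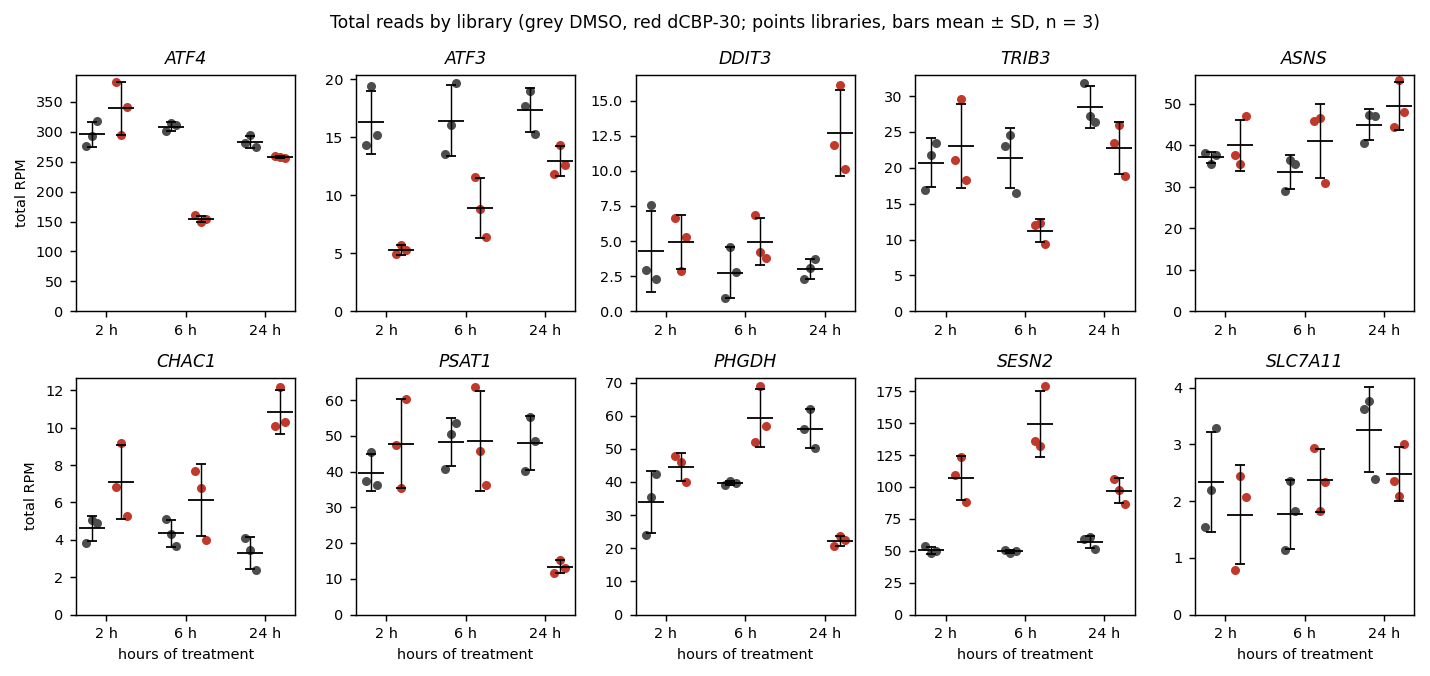
Total RPM (y axis, one scale per gene) of the 10 members in each labelled library at 2, 6 and 24 h (x axis), DMSO in grey and dCBP-30 in red, with the mean ± SD (n = 3). DDIT3 and CHAC1 stand highest in the dCBP-30 libraries at 24 h, while ATF4 is at 257 against 283 RPM at 24 h after 154 against 309 RPM at 6 h.

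The members differed widely in labelled share before any treatment effect. In DMSO at 2 h it was 88.8% ± 3.24 for CHAC1, 59.6% ± 9.97 for ATF3, 56.2% ± 15.8 for DDIT3, 34.0% ± 2.60 for ATF4, 19.7% ± 2.64 for SESN2 and 15.9% ± 5.27 for TRIB3 (SD, n = 3 each). The enzymes had lower shares, at 4.29% ± 0.798 for PSAT1, 3.33% ± 1.59 for ASNS and 2.45% ± 2.23 for PHGDH. Without 4sU these 3 had mean shares of 1.22%, 1.19% and 0.602%, so part of each low share is background. The transcription factors and CHAC1 thus had larger labelled shares than the 3 biosynthetic enzymes. The number of T positions covered by a read, which limits how often a conversion can be seen, ranged from 16.8 for ASNS to 36.7 for PSAT1, so shares of different genes are not on quite 1 scale.

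At 2 h no member was called in labelled share, beside 5.00% of the 8979 genes tested called lower and 0.780% higher. At 6 h none was called either, beside 5.00% and 0.245%. With edgeR at an unadjusted p under 0.05, the earlier time had 2 members lower and 1 higher and the later time 1 lower and 0 higher, and limma called 0 at both times. At 24 h, 2 members were called lower and 0 higher, beside 22.4% and 0.111% (0 members higher also at an unadjusted p under 0.05 and with limma). ATF4's odds fell by 1.05 ± 0.17 (SE) on the log2 scale (adjusted p = 7.25e-05), a call at the 2-fold limit that ended without dCBP-30 replicate 1 or 2 or DMSO replicate 3 (-0.96 to -0.98). ATF3's fell by 1.75 ± 0.51 (adjusted p = 0.0123, and 0.0684 without dCBP-30 replicate 1), from a share of 67.2% ± 4.19 to 38.3% ± 12.5 (SD, n = 3 each). The median over the 9 members tested was -0.91 and that over all genes -0.78. DDIT3 and CHAC1, whose T>C and total reads rose at 24 h, had shares of 37.2% ± 10.3 against 63.0% ± 12.1 and of 48.8% ± 2.16 against 64.1% ± 2.34, neither called. PHGDH's log2 odds ratio of -1.60 missed the threshold (adjusted p = 0.0616), but passed without DMSO replicate 3 or dCBP-30 replicate 1 of 24 h or DMSO replicate 1 of 2 h.

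**Figure D4:**
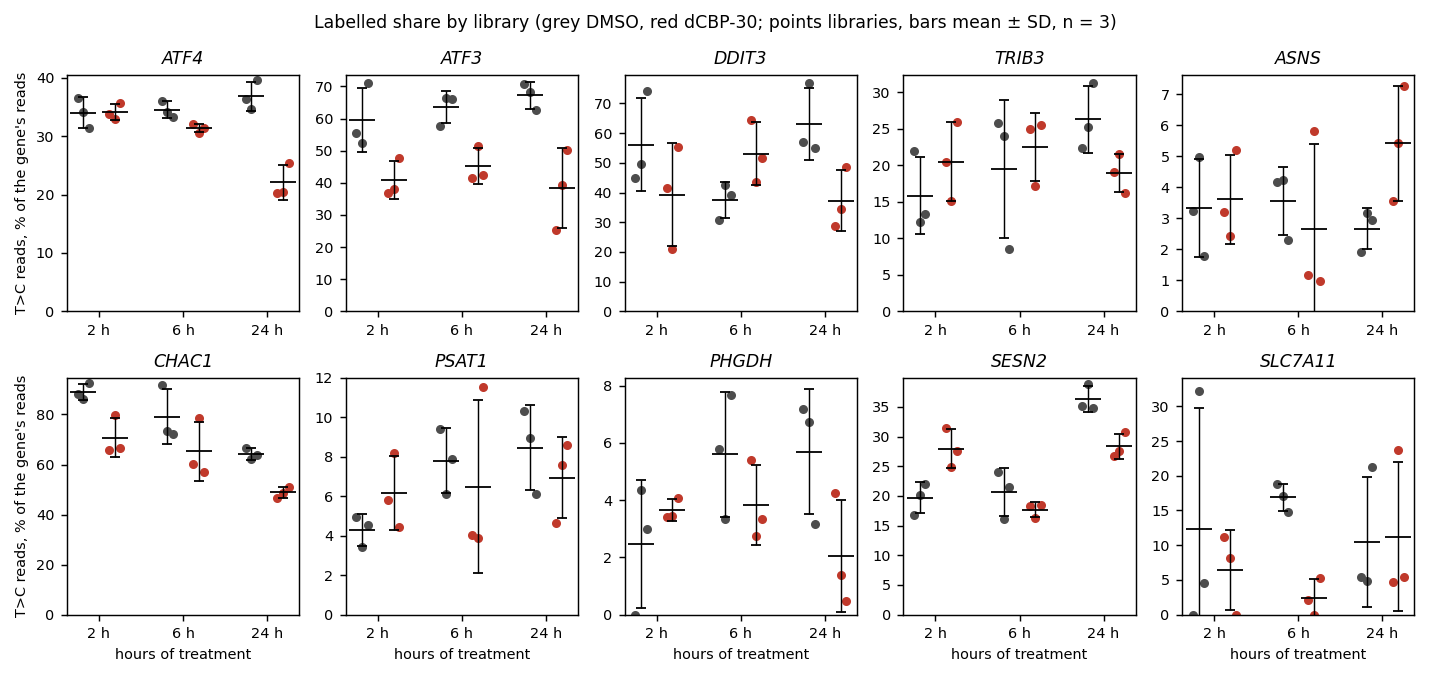
Labelled share, the percent of a gene's reads that are T>C reads (y axis, one scale per gene), in each labelled library at 2, 6 and 24 h (x axis), DMSO in grey and dCBP-30 in red, with the mean ± SD (n = 3). ATF4 and ATF3 lie below DMSO at 24 h, at 22.1% against 36.9% and at 38.3% against 67.2%.

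The differences between time points were tested in T>C reads as interactions, which share the 2 h libraries. Between 6 and 2 h, 1 member was called lower (ATF4) and 0 higher, beside 6.63% and 0.615% of all genes (edgeR, 0 members higher at an unadjusted p under 0.05). Between 24 and 2 h, 4 were called lower (ATF4, PSAT1, PHGDH and SESN2) and 0 higher, beside 21.6% and 2.58% (1 member higher at an unadjusted p under 0.05). TRIB3's differences from 2 h, -1.34 at 6 h and -1.27 at 24 h, missed the threshold (adjusted p = 0.133 and 0.0671), but both passed without DMSO replicate 3 of 6 h, and the latter also without dCBP-30 replicate 2 of 24 h. Scaled by T>C reads, the comparison of 24 with 2 h had PSAT1 and PHGDH lower and ATF3 (1.55, adjusted p = 0.00782), DDIT3 (2.04, adjusted p = 0.0493) and CHAC1 (1.65, adjusted p = 0.0215) higher, beside 911 genes lower and 626 higher in place of 2181 and 260.

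Vehicle levels were not constant. In T>C reads, DMSO at 24 h against DMSO at 2 h gave 2 members called higher (TRIB3 and SESN2) and 0 lower, beside 2.53% and 0.00991% of all genes, where the median of all genes was 0.49 (edgeR, 1 member lower at an unadjusted p under 0.05). The 255 genes called higher were 67 and 144 without DMSO replicate 1 or 2 of 2 h and 60 and 146 without DMSO replicate 1 or 3 of 24 h. SESN2's T>C reads rose by 1.07 ± 0.20 (adjusted p = 0.00154), from 9.90 ± 0.998 to 20.7 ± 2.79 RPM (SD, n = 3 each), and by 0.96, not called, without DMSO replicate 2 of 24 h. TRIB3's rose by 1.23 ± 0.38 (adjusted p = 0.0406), from 3.17 ± 0.508 to 7.42 ± 0.748 RPM, a call that ended when any 1 of the libraries compared was left out. PSAT1 and PHGDH had larger changes, 1.26 ± 0.45 and 1.78 ± 0.655, that did not pass (adjusted p = 0.0794 and 0.0873). In total reads no member was called, beside 0.0326% lower and 0.0244% higher (edgeR, 0 lower and 2 higher at an unadjusted p under 0.05).

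The other genes of the pathway were taken from 5 lists chosen by function. Of the 8 kinases, phosphatase subunits and related factors of eIF2, 2, 3 and 2 were called lower in T>C reads after 2, 6 and 24 h, and 0 higher. Of all genes, 7.14%, 17.1% and 31.2% were called lower and 1.66%, 2.36% and 2.17% higher. In total reads at 24 h 1 of the 8 was lower and 3 were higher, beside 16.1% and 15.0% of all genes. EIF2AK3, the kinase PERK that senses misfolded protein, fell at each time, by 1.34, 1.79 and 1.25 on the log2 scale (adjusted p = 3.39e-05, 1.47e-08 and 1.15e-05). PPP1R15A, the stress-induced phosphatase subunit GADD34, fell by 1.64 at 2 h (adjusted p = 2.95e-07) and 1.23 at 6 h (adjusted p = 2.06e-05), and at 24 h had a log2 change of 0.43 (adjusted p = 0.125) in T>C reads and a rise of 1.44 in total reads (adjusted p = 9.66e-08). EIF2AK4, the amino acid sensing kinase GCN2, had 0.15 ± 0.63 at 24 h in T>C reads (adjusted p = 0.886) and rose by 1.08 in total reads (adjusted p = 0.000152), as did IMPACT, an inhibitor of GCN2, by 1.25 (adjusted p = 0.0179). EIF2S1, the eIF2 alpha subunit, fell by 1.73 at 24 h (adjusted p = 0.00111), the largest fall of this list at that time.

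Most of the amino acid transporters that could be tested were called lower by 24 h. Of 9, 7 could be tested, and 3, 5 and 6 were called lower at 2, 6 and 24 h with 0 higher, for medians of -0.19, -1.58 and -2.19. Of all genes, 7.14%, 17.1% and 31.2% were called lower and 1.66%, 2.36% and 2.17% higher. SLC7A5 and SLC3A2 form the LAT1 transporter of large neutral amino acids. SLC3A2 had 21.2 ± 4.31 T>C RPM with dCBP-30 at 24 h against 72.1 ± 1.22 (SD, n = 3 each), a fall of 1.76 ± 0.16 (adjusted p = 4.93e-14), and SLC7A5 fell by 2.34 ± 0.41 (adjusted p = 3.1e-06). SLC1A5, the glutamine carrier ASCT2, fell most, by 2.89 ± 0.22 (adjusted p = 5.19e-17).

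Of 12 enzymes of amino acid and folate metabolism, 9 could be tested, of which 0, 3 and 5 were called lower at the 3 times and 1, 1 and 0 higher, beside the same shares lower and 1.66%, 2.36% and 2.17% of all genes higher. MTHFD2 and SHMT2, mitochondrial folate enzymes downstream of serine, fell at 24 h by 2.37 ± 0.25 (adjusted p = 5.06e-12) and 1.44 ± 0.30 (adjusted p = 6.76e-05). PYCR1, the last enzyme of proline synthesis, had 3 T>C reads over the 3 dCBP-30 libraries at 24 h and 252 over the DMSO libraries, a ratio of DMSO to dCBP-30 of 101 with a 95% exact interval of 34.1 to 491 for counting error only. The falls of PSAT1 and PHGDH thus stood beside falls of several other enzymes, while ASNS and PSPH were not called. Not all enzymes of the list fell, and its largest rise in T>C reads at 6 h was 4.81 on the log2 scale. In total reads, 0 of the 12 were called lower and 1 higher at 6 h, beside 8.67% and 7.47% of all genes. At 24 h 4 were lower and 1 higher, beside 16.1% and 15.0%.

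Of 20 other targets of ATF4 and CHOP, 15 could be tested, with 3, 7 and 6 called lower and 0, 0 and 2 called higher at the 3 times, beside 7.14%, 17.1% and 31.2% of all genes lower and 1.66%, 2.36% and 2.17% higher. BBC3, the cell death gene PUMA, rose at 24 h to 54.3 ± 2.84 T>C RPM from 14.5 ± 2.42 (SD, n = 3 each), by 1.91 ± 0.22 (adjusted p = 1.11e-10). TNFRSF10B, the death receptor DR5, was the other gene called higher, by 1.11 ± 0.46 (adjusted p = 0.0458). VEGFA fell most, by 2.28 ± 0.43 (adjusted p = 1.51e-05). DDIT4, an mTORC1 inhibitor, fell by 2.87 at 2 h (adjusted p = 3.88e-09) and 2.43 at 6 h (adjusted p = 1.12e-07), with 0.31 at 24 h (adjusted p = 0.47). CEBPB, a partner of ATF4, fell by 1.76 at 6 h (adjusted p = 1.31e-05) and 1.09 at 24 h (adjusted p = 0.00242).

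The targets of the other arms of the unfolded protein response, IRE1 and ATF6, were tested for all 15 genes. The number called lower was 3, 6 and 14 at the 3 times and the number called higher 1, 0 and 0. Of all genes, 7.14%, 17.1% and 31.2% were called lower and 1.66%, 2.36% and 2.17% higher. HSPA5, the chaperone BiP, rose at 2 h by 1.02 ± 0.14 (adjusted p = 1.06e-07), with 130 ± 11 against 64.2 ± 2.39 T>C RPM (SD, n = 3 each), and fell at 24 h by 1.60 ± 0.15 (adjusted p = 7.95e-14). XBP1, the factor spliced by IRE1 and also a plasma cell factor, fell by 2.75, 4.53 and 4.19 at 2, 6 and 24 h (adjusted p = 1.26e-21, 5.13e-30 and 4.86e-29). At 24 h all 15 genes of this list had negative changes in T>C reads and 14 were called lower. CHAC1 was called higher at that time, as was DDIT3 close to the limit of the test.

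**Figure D5:**
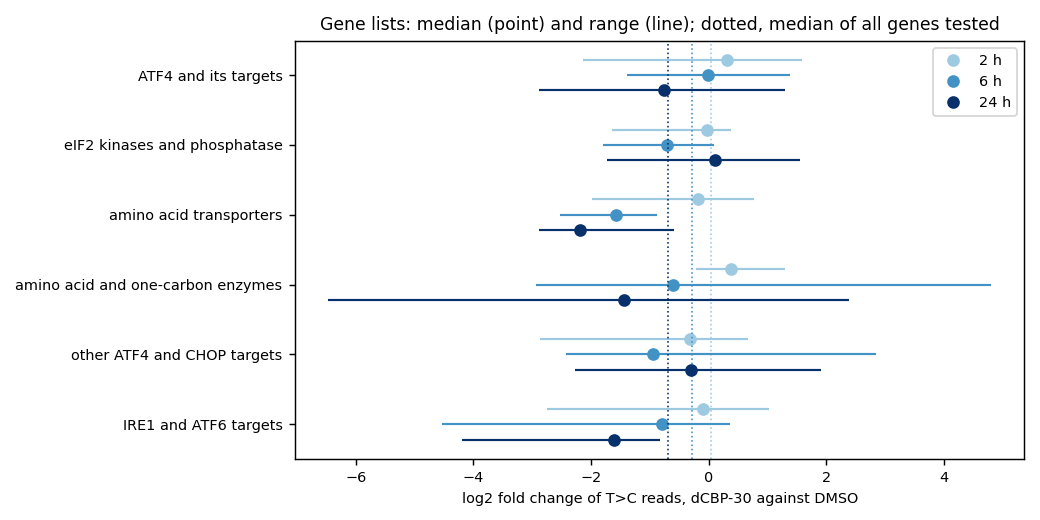
Log2 fold change of T>C reads, dCBP-30 against DMSO (x axis), for the members and the 5 other gene lists (y axis), with the median as a point and the range of the tested genes as a line at 2, 6 and 24 h. Dotted lines are the medians of all genes tested, -0.69 at 24 h, and the median of the amino acid transporters is -2.19 at that time.

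Over the 18 labelled libraries, the members did not share 1 pattern of T>C reads. The Pearson correlation of log2(T>C RPM + 0.5) between PSAT1 and PHGDH was 0.71 and that between ATF3 and SESN2 was -0.72, while ATF4 had values between -0.43 and 0.45 with the other 8 members tested. The libraries share groups and time points, so these are descriptions over 18 points. The genes most like ATF4 were RPL3 (0.979), ZNF521 (0.965) and PPIA (0.96). Those most like DDIT3 were RB1CC1 (0.815), FAM177A1 (0.809) and PIAS3 (0.795), and those most like ASNS were SH3GLB1 (0.792), ITM2A (0.758) and FBRSL1 (0.749).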

How the data were processed

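The authors trimmed the 3′-end reads with Trim Galore, mapped them with Slamdunk on 3′ UTRs of hg38, removed multimapping reads and collapsed the output, and deposited raw counts for each transcript (all reads, those with a T>C conversion, the conversions, and T positions covered), without normalization or pooling. Their own tests used DESeq. Here, transcript identifiers were looked up in GENCODE release 44, where 89088 of 97466 matched and the rest held at most 0.199% of a library's reads, and each gene took the transcript with the most reads. The members' 3′ UTR lengths in hg38 and in the annotation differed only by the stop codon.

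The T>C and total counts of the 18 labelled libraries were fitted with edgeR 4.0.16 (robust quasi-likelihood, filterByExpr with a minimum count of 10, library size as total reads times TMM) in R 4.3.3, with 1 mean per group. The labelled share was fitted to T>C and other reads with a term per library, over genes with means of at least 10 reads of each kind. DESeq2 1.42.0 and limma 3.58.1 served as alternatives, beside other scalings, filters, a replicate block and left-out libraries. Fits were tested on simulated data. Libraries of a group were not copies (chi-square per degree of freedom 8.36 to 47.5). Genes named are all members, fixed pathway genes, the largest called fall and rise of each list at 24 h among genes whose groups did not overlap, and the 3 genes most correlated with ATF4, DDIT3 and ASNS. TNFRSF10B, PSPH, IMPACT, CD14, CD3E, ALB, SDC1 and TNFRSF17 were named besides. The members and lists were chosen with earlier results of these data known. The spike-in RNA was not used here.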

Additional observations from a re-analysis of the deposited data

Results flagged for a closer look

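The effect of dCBP-30 on T>C reads differed between time points, by an interaction test, for ATF4 (-1.34 between 6 and 2 h and -1.08 between 24 and 2 h on the log2 scale, adjusted p = 1.24e-06 and 2.12e-05). Between 24 and 2 h it also differed for PSAT1 (-2.81, adjusted p = 0.00061), PHGDH (-3.65, adjusted p = 0.00255) and SESN2 (-1.19, adjusted p = 0.000896). Scaled by T>C reads, the differences between 24 and 2 h of SESN2 (-0.54, adjusted p = 0.172) and ATF4 (-0.45, adjusted p = 0.0918) did not pass. The DMSO level of SESN2 also rose between these times. PSAT1 and PHGDH had log2 changes of 1.26 and 1.78 in DMSO, neither called (adjusted p = 0.0794 and 0.0873). The part of these vehicle changes in the interactions was not tested.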

How the results depend on the processing

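Of 2696 values of single members under the alternatives, 2588 kept direction and side of the threshold, 36 lost a call, 23 gained one and 49 changed sign. Scaled by T>C reads, 1 member was lower and 2 higher in T>C reads at 6 h, 4 were higher at 24 h, and the interaction of 24 with 2 h had 2 lower and 3 higher. Without TMM factors, T>C reads had 1 lower and 2 higher at 6 h, and total reads had 0 lower and 2 higher at 6 h and 1 lower at 24 h. In T>C reads at 24 h, ATF3 then lost its call (-0.70) and ASNS was called higher (1.67). In total reads at 24 h, SESN2 was then called higher (1.29). DESeq2 gave 1 higher in T>C reads at 24 h and 0 lower in total reads at 6 h. Background subtraction, reads summed over transcripts and the replicate block each gave 1 higher in T>C reads at 24 h, DDIT3 being the call lost. Replicate numbers did not pair the libraries (correlations of same-numbered deviations -0.19 to 0.04), and the replicate block changed no other count of called members.

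Leaving out 1 library, the count of members called higher, T>C reads, 6 h was 1 to 2, called higher, T>C reads, 24 h was 1 to 2, called lower, T>C reads, 6 h minus 2 h was 1 to 2, called higher, T>C reads, 24 h minus 2 h was 0 to 1, called higher, T>C reads, DMSO 24 against 2 h was 0 to 2, called higher, total reads, 2 h was 0 to 1, called lower, total reads, 6 h was 0 to 2, called higher, total reads, 6 h was 1 to 2 and called lower, labelled share, 24 h was 1 to 3. Some uncalled log2 changes turned sign. With background subtracted, the value was -0.13 for ASNS (T>C reads at 6 h). With the replicate block, the value was -0.19 for ASNS (T>C reads at 6 h). Scaled by T>C reads, the value was 0.31 for PHGDH (T>C reads at 6 h), 0.045 for ASNS (T>C reads, 6 minus 2 h), 0.24 for CHAC1 (T>C reads, 6 minus 2 h) and 0.094 for SESN2 (T>C reads, 6 minus 2 h). Without TMM factors, the value was 0.30 for PHGDH (T>C reads at 6 h), 0.030 for ASNS (T>C reads, DMSO 24 against 2 h), 0.39 for ATF4 (total reads at 24 h), 0.10 for ATF3 (total reads at 24 h), 0.20 for TRIB3 (total reads at 24 h) and 0.12 for SLC7A11 (total reads at 24 h). Summed over transcripts, the value was 0.016 for PHGDH (T>C reads at 6 h). Leaving out 1 library, values that changed sign ranged from -0.46 to 0.46 for DDIT3 (T>C reads, 2 h), -0.25 to 0.66 for ASNS (T>C reads, 2 h), -0.044 to 0.53 for CHAC1 (T>C reads, 2 h), -1.47 to 0.46 for ASNS (T>C reads, 6 h), -0.018 to 0.51 for CHAC1 (T>C reads, 6 h), -0.27 to 0.29 for PHGDH (T>C reads, 6 h) and -1.77 to 0.27 for ASNS (T>C reads, 6 minus 2 h). Others ranged from -0.33 to 0.27 for CHAC1 (T>C reads, 6 minus 2 h), -0.52 to 0.33 for DDIT3 (T>C reads, DMSO 24 against 2 h), -0.30 to 0.35 for ASNS (T>C reads, DMSO 24 against 2 h), -0.098 to 0.90 for DDIT3 (total reads, 2 h), -0.071 to 0.30 for TRIB3 (total reads, 2 h), -0.026 to 0.19 for ASNS (total reads, 2 h) and -0.23 to 0.18 for PSAT1 (total reads, 6 h). Others ranged from -0.80 to 0.20 for DDIT3 (total reads, DMSO 24 against 2 h), -0.078 to 0.089 for ATF4 (labelled share, 2 h), -0.22 to 0.55 for ASNS (labelled share, 2 h), -0.001 to 1.15 for PHGDH (labelled share, 2 h) and -0.21 to 0.65 for TRIB3 (labelled share, 6 h). The causes of these changes were not tested. Depth limits the members with few T>C reads, ASNS, DDIT3, PHGDH and SLC7A11, whose libraries held as few as 5, 4, 0 and 0.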
